A study of Mus musculus with 4 samples.

Results

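The cells described here are droplet barcodes of mouse kidney labelled natural killer (NK) cells and innate lymphoid cells (ILC), chosen by the counts of 6 genes in unique molecular identifiers (UMIs), each of which stands for 1 captured transcript. A barcode was a member if its summed UMIs of Nkg7, Gzma, Klrb1c, Ncr1, Il7r and Gata3 were at least 4, it held at least 1 UMI of Ptprc, the gene of the leukocyte antigen CD45, and it held none of Cd3d, Cd3e and Cd3g, the CD3 chains of the T cell receptor complex. C1q genes had to sum to under 5, S100a8 and S100a9 to under 10, and Cd79a and Ms4a1 to under 2, limits on macrophages, neutrophils and B cells. Barcodes entered with 200 to 5000 genes and under 50% mitochondrial UMIs, which kept 34789 of 58660, and 271 of those kept were members. The rule chose them by measured levels, so the levels of its own genes describe the choice and were not tested.

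Whole kidneys of 18-week-old males of strain C3H (C3H/HeJ in the study's methods) were dissociated for single-cell RNA-Seq, 1 library for each of 4 conditions. WT mice and mice of the Sweet Pee line (SP), whose germline missense mutation in Slc5a2 removes the function of the SGLT2 glucose cotransporter, were fed a normal diet (ND) or a high-fat diet (HFD, 60% of calories from fat) for 8 weeks from 10 weeks of age. Where 4 values are given for the libraries, their order is WT-ND, WT-HFD and then SP-ND, SP-HFD. The number of animals behind each library was not given in the sources used here, the SP allele was present in every cell of the body, and the dissociation by enzymes with lysis of red cells was shared by all 4 libraries. The libraries gave 72, 66, 63 and 70 members, and no member barcode sequence occurred in more than 1 library. With 1 library per condition, differences between conditions have no replicate check, and intervals between libraries cover counting error only.

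NK cells are innate lymphocytes that kill stressed, infected or transformed cells by releasing perforin and granzymes, under the balance of activating and inhibitory receptors, and that secrete interferon gamma and chemokines. ILC are their relatives in tissues: group 1 ILC share the NK transcription factor T-bet, and group 2 ILC depend on GATA3 and respond to interleukin 33 through ST2 (Il1rl1). GATA3 is also a transcription factor of the collecting duct epithelium of the kidney, and the interleukin 7 receptor (Il7r) is carried by ILC and T cells alike.

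The members fell into 3 sets by the genes that led their sum, and most barcodes of 1 of these sets went against the label. In 117 barcodes Nkg7, Gzma, Klrb1c and Ncr1 together exceeded Il7r and Gata3, and these are called the cytotoxic side. The other 154 were parted, after their values had been seen, into 105 with more Gata3 than Il7r (Gata3-led) and 49 others (Il7r-led). Gata3-led barcodes held collecting duct transcripts at high levels and almost no NK transcripts, so they are named here by the gene that led them and by no cell type. The cytotoxic side numbered 40, 29, 21 and 27 barcodes by library and the Gata3-led set 28, 20, 32 and 25. The Il7r-led set was the smallest in each library, with 4, 17, 10 and 18.

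**Figure D1:**
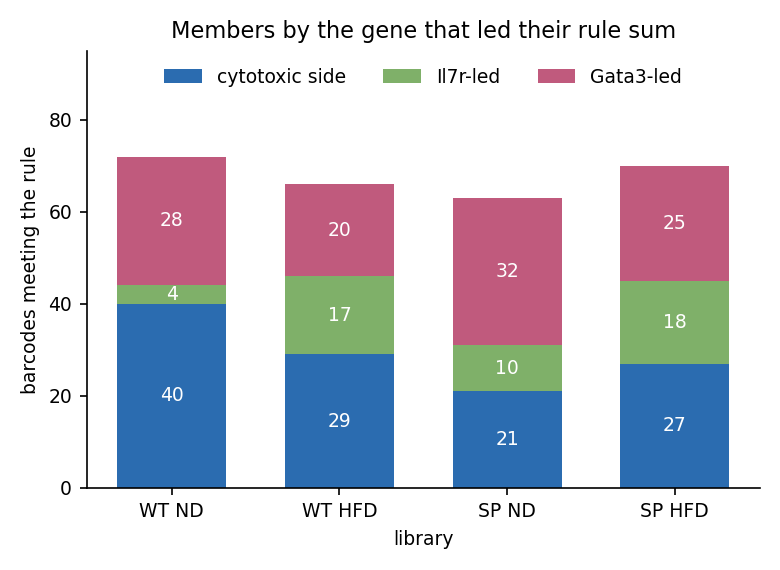
Number of barcodes meeting the rule in each of the 4 libraries (stacked bars, count on the y axis), divided by the genes that led the rule's sum. The cytotoxic side gave 40, 29, 21 and 27 barcodes and the Gata3-led set 28, 20, 32 and 25, from left to right.

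The genes of the rule describe the cytotoxic side as Gzma-rich. Levels are given as CPM, the UMIs of a gene in a set of barcodes per 1000000 UMIs of that set in that library, and since a UMI tags the end of 1 transcript they can be set side by side between genes without a length. Gzma, granzyme A, stood at 2125, 6610, 2399 and 5331 CPM on the cytotoxic side. It is part of the sum that chose these barcodes, so its levels are no comparison of diets. Nkg7, a granule membrane protein, stood at 778, 1620, 1140 and 2370 CPM. Ncr1, the activating receptor NKp46, stood at 367, 619, 755 and 827 CPM. Klrb1c, the NK1.1 antigen in strains that carry it, was the lowest of the 4 at 43.8, 47.7, 104 and 138 CPM. The median sum over the rule's genes was 12, 43, 12 and 20 UMIs by library, against 5 in the Gata3-led set over all libraries.

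The threshold itself passed through the Gata3-led barcodes. Among the 55 members just inside it, with a sum of 4, Gata3 gave the larger part of the sum in 34. Among the 81 barcodes just outside, with a sum of 3 and every other limit met, Gata3 did so in 57, and 42 of the 81 were in WT-ND. The limit on CD3 left out 161 barcodes that met the sum, 24, 50, 33 and 54 by library, and 110 of these held a UMI of an NK gene outside the rule.

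NK markers that the rule did not use went with the label on the cytotoxic side and were almost absent from the Gata3-led set. At least 1 UMI of Klre1, Klrd1, Prf1, Eomes or Txk was present in 110 of 117 cytotoxic-side barcodes (94.02%, 95% Clopper-Pearson interval 88.1 to 97.6%), in 22 of 49 Il7r-led barcodes and in 3 of 105 Gata3-led barcodes. Proximal tubule barcodes, which should lack them, held such a UMI in 0.750% at a median depth of 8300 UMIs, against 2545 UMIs on the cytotoxic side. By library the share on the cytotoxic side was 92.5%, 100%, 95.2% and 88.9%. Prf1, perforin, was found in 58.1% of cytotoxic-side barcodes and 0.134% of proximal tubule barcodes, and in 30.7% of the former after each barcode was thinned to 1000 UMIs, a step that left out 3 of the 117. Klre1, a lectin-like receptor of NK cells, was found in 41.9% and, thinned, in 24.6%. Eomes, a T-box factor of NK cells, was found in 33.3% and 14.04%. All 3 genes were at 0 UMIs in the 105 Gata3-led barcodes.

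T cell receptor transcripts were partly present on the cytotoxic side, although CD3 was barred. Trac, the constant part of the alpha chain, was found in 5 of 117 barcodes (4.27%), close to the 4.14% of proximal tubule barcodes, and in 47.6% of T cells. The constant parts of the beta chain were more frequent, with Trbc1 in 53.0% and Trbc2 in 25.6% of cytotoxic-side barcodes beside 0.403% and 0.537% of proximal tubule barcodes. Trbc1 stood at 87.6, 320, 296 and 386 CPM on the cytotoxic side and Trbc2 at 71.2, 177, 178 and 303 CPM. Trdc, the constant part of the delta chain, was found in 14 of the 117, beside 0.0784% of proximal tubule barcodes. The libraries were tagged at transcript ends, so these counts do not tell a rearranged receptor transcript from an unrearranged one.

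The Gata3-led set held collecting duct transcripts in every library. Its median barcode held 15303 UMIs, of which 17.8% were mitochondrial, against 2545 UMIs and 6.49% on the cytotoxic side. Aqp2, the water channel of principal cells, stood at 2869, 2486, 4180 and 3981 CPM. Hsd11b2, which shields the mineralocorticoid receptor from cortisol-like hormones, stood at 3035, 1072, 2839 and 2286 CPM. Of the 105 barcodes, 92 held at least 10 UMIs of the 8 listed collecting duct genes, and 79 held just 1 UMI of Ptprc, the smallest number the rule allowed. Not all were of this kind: 97 held any collecting duct UMI, and in WT-HFD 17 of 20 did. Among kept barcodes with at least 4 Gata3 UMIs and no Ptprc there were 739, with Aqp2 at 3571 CPM, Hsd11b2 at 1603 and Aqp3 at 1106, beside 3448, 2402 and 1263 in the Gata3-led set. A UMI of Ptprc was present in 470 of 4502 kept barcodes with at least 10 collecting duct UMIs (10.4%), from 7.01 to 15.4% by library, at a median depth of 8700 UMIs. It was present in 3.72% of proximal tubule barcodes and 7.89% of all kept barcodes, both limited to the same range of depth, with medians of 11234 and 9618 UMIs. Depth was not matched between the first of these shares and the others. Doublet scores marked 19 of the 105 Gata3-led barcodes, 9 of the 117 on the cytotoxic side and 4 of the 49 led by Il7r. How Ptprc came to be in these barcodes was not tested.

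**Figure D2:**
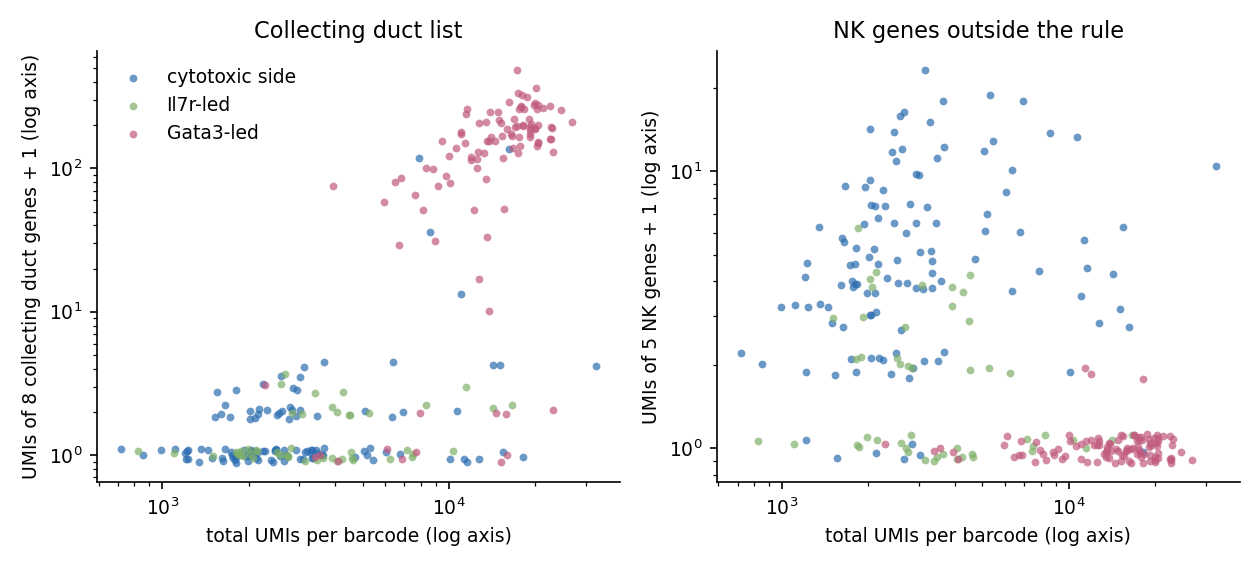
Each point is 1 of the 271 member barcodes, with its total UMIs on the x axis (log scale) and, on the y axis (log scale, 1 added), its UMIs of 8 collecting duct genes (left) or of 5 NK genes outside the rule (right); points are moved at random by up to 12% for legibility. Of the 105 Gata3-led barcodes, 92 lie at 10 or more collecting duct UMIs and 3 hold an NK gene, whereas 110 of the 117 cytotoxic-side barcodes hold an NK gene.

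The Il7r-led barcodes held transcripts known from several cell types. Il7r stood at 1349 CPM over the 4 libraries, Ltb, a lymphotoxin chain of lymphoid cells, at 809 and Tyrobp, the adaptor DAP12, at 1238. Il1rl1, the interleukin 33 receptor of group 2 ILC, was found in 14 of 49 barcodes and in none of the 117 on the cytotoxic side. It stood at 0, 235, 187 and 99.8 CPM by library, with 4 barcodes in the first of these. Over all members of WT-HFD, Il1rl1 had 28 UMIs in 8 barcodes, and the part of the Gata3-led set in these is not given here. Siglech, a receptor of plasmacytoid dendritic cells, was present in 7 of the 49 with 82 UMIs, basophil genes were present in 2 and class II antigen genes in 14. Ncr1 was found in 13 and Xcl1, a chemokine of NK cells and ILC, in 14. No background share in other barcodes is set beside these counts, so they do not show how many cell types the set holds. The set therefore carries no cell type name here, and its libraries hold too few barcodes to be compared.

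**Figure D3:**
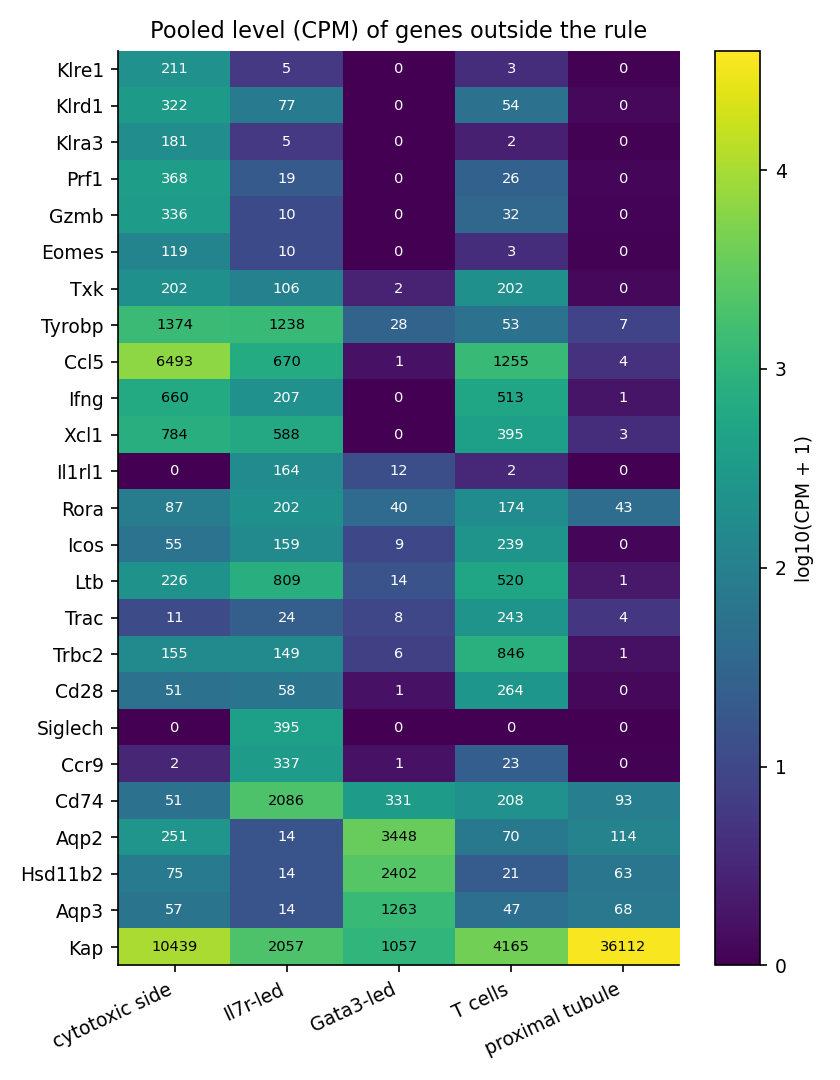
Pooled level over the 4 libraries of 25 genes outside the rule (rows) in 5 sets of barcodes (columns), printed in each cell as CPM and coloured by log10(CPM + 1). NK genes such as Klre1 and Prf1 are at 211 and 368 CPM on the cytotoxic side and at 0 in the Gata3-led set, where Aqp2 and Hsd11b2 reach 3448 and 2402 CPM.

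The cytotoxic side was next compared with T cells of the same libraries, 374 barcodes with at least 2 CD3 UMIs and the same other limits (86, 91, 65 and 132). UMIs were summed per library and class and tested with edgeR's quasi-likelihood test with library as a block, so that the 4 libraries are 4 samples of a difference between classes, although each is of another condition. Adjusted p-values measure only the spread between these libraries, and a gene was called at an adjusted p under 0.05 and at least 2-fold. The 17 genes of the rule were left out, and since CD3 UMIs and 4 NK genes set the classes, T cell receptor genes and NK markers that go with these were bound to follow. A gene near 0 in T cells could pass the filter on low counts only through the cytotoxic side, and a gene near 0 there only through T cells. Counts of NK genes among those tested, and ratios and adjusted p-values of such genes, describe the classes and support nothing further. Of 2370 genes, 46 were higher on the cytotoxic side (1.94%) and 84 were lower (3.54%). The comparison was added after the members' values had been seen.

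Receptors of the NK gene complex led the higher genes. Klra3, which encodes a Ly49 receptor for class I antigens, stood at 148, 211, 193 and 193 CPM on the cytotoxic side and at 0, 0, 0 and 4.58 CPM in T cells, with 2 T cell UMIs in all. Klre1 stood at 115, 279, 163 and 358 CPM against 0, 2.25, 4.93 and 4.58. The mean of the 4 log2 ratios was 6.31 ± 1.00 (SD, n = 4) for Klra3 and 5.69 ± 0.81 for Klre1. The T cell sums behind them were 2 and 4 UMIs, so both genes passed the filter only through the cytotoxic side, itself chosen on NK genes. Their ratios depend on the counts added before the logarithm, are no bounds and describe the choice. Of 20 listed inhibitory receptors, 3 passed the filter and were higher, namely Klra3, Klrd1 (CD94) at a fitted log2 ratio of 2.64 and Klrc1 (NKG2A), its partner, at 3.24. Of 15 activating receptors and adaptors tested, 4 were higher, namely Klrk1 (NKG2D), Klrc2, Fcer1g and Tyrobp, and none was lower. Together with Klrb1c of the rule and Klrb1f, these Klr genes number 8 and lie within 1.559 Mb of chromosome 6, from 128778485 to 130337574 (GRCm38, GENCODE vM21 annotation). Klra genes are close copies of each other and differ between strains, and how reads of C3H mice were shared among them, or among the Klrb genes with Klrb1c of the rule, was not tested.

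Effectors and chemokines were divided. Of 9 cytotoxic effectors tested, Prf1 and Gzmb were higher and 7 passed in neither direction. Prf1 stood at 197, 572, 281 and 468 CPM against 24.7, 18.0, 19.7 and 36.6 in T cells (mean log2 ratio 3.79 ± 0.83, SD, n = 4). Gzmb, granzyme B, stood at 142, 340, 415 and 744 CPM against 12.4, 47.3, 39.4 and 25.2. Both genes were low in T cells and the cytotoxic side was chosen on NK genes, so these values describe the choice of the classes. Of 7 cytokines and chemokines tested, the chemokines Ccl5, Ccl3 and Ccl4 were higher and Ltb was lower. Ccl3 had a fitted log2 ratio of 3.57, Ccl4 of 2.18 and Ccl5 of 2.16. Ccl3 stood at 34.7 CPM in T cells, so its ratio too describes the choice. Ifng, interferon gamma, had a fitted log2 ratio of 0.11 (adjusted p = 0.940) and the classes overlapped, and Xcl1 had 0.90 (adjusted p = 0.220). A difference of either sign is therefore not shown for these 2 genes at this number of libraries.

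Transcription factors and adaptors also differed between the classes. Of 12 transcription factors of innate lymphocytes tested, Eomes, Irf8 and Zeb2 were higher on the cytotoxic side and Tcf7 and Bcl11b, both known from T cell development, were lower. Eomes had a fitted log2 ratio of 5.25 and a mean of the 4 library ratios of 5.11 ± 1.46 (SD, n = 4). It stood at 3.01 CPM in T cells, so these values too describe the choice of the classes. Id2, a factor that all ILC depend on, had 0.33 (adjusted p = 0.446). Tyrobp stood at 876, 1423, 1599 and 2314 CPM against 57.6, 63.0, 14.8 and 57.2. It is an adaptor of NK receptors and was low in T cells, so its values describe the choice as well. Cma1, a chymase best known from mast cells, and Plek, a cytoskeletal regulator of blood cells, were also among the 10 leading genes, at fitted log2 ratios of 5.94 and 3.67. Cma1 stood at 1.51 CPM in T cells and Plek at 10.5, so the same holds for their ratios. The 9 listed basophil and mast cell genes summed to 159, 88.5, 59.2 and 27.6 CPM on the cytotoxic side, 48 UMIs in all. Hdc, histidine decarboxylase, gave 40 of these in 13 barcodes (11.1%, beside 53.9% of proximal tubule barcodes), and its log2 ratio to T cells was 1.17 without passing. Mcpt8, Cpa3 and Ms4a2 were at 0 UMIs. No cytotoxic-side barcode held Siglech, which shares Irf8's list of plasmacytoid dendritic genes.

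Of 28 listed NK markers outside the rule, 19 passed the filter on low counts. Of these, 17 were higher on the cytotoxic side and none was lower, beside 1.94% and 3.54% of all genes tested. The 2 that passed in neither direction included Txk, at 202 CPM in both classes. Among the 17, Klre1 and Eomes stood at 3.01 CPM in T cells and Cma1 at 1.51. The cytotoxic side was itself chosen on NK genes, so the count of 17 describes the choice of the classes. Several genes of this list are also in the lists of receptors, effectors and chemokines above, so the counts overlap.

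Lower on the cytotoxic side were 8 of 9 alpha-beta T cell markers tested, among them Trac, Lef1, Ccr7, Cd28 and Tcf7, beside 3.54% of all genes. CD3 UMIs set the classes, so these markers were bound to follow. S1pr1, the receptor that draws lymphocytes out of tissue, was among the lowest, at 5.48, 6.81, 0 and 0 CPM against 128, 108, 266 and 117 in T cells (fitted log2 ratio -4.99). It was near 0 on the cytotoxic side and passed the filter on low counts only through T cells. Its ratio depends on the counts added before the logarithm and is a description. Of 12 genes listed for group 1 ILC and tissue residency, 6 were tested. Of these, Inpp4b, Cxcr6 and Ltb were lower and none was higher. Cxcr6, a chemokine receptor of resident lymphocytes, stood at 49.3, 88.5, 193 and 262 CPM against 231, 241, 251 and 361, and was found in 17.9 and 40.1% of barcodes of the 2 classes over the 4 libraries. Itga1, an integrin of resident group 1 ILC, had a fitted log2 ratio of 0.15 (adjusted p = 0.936). Of 9 interferon-stimulated genes tested, Ifi27l2a, Gbp7 and Slfn2 were lower. The remaining leading genes below T cells were Gm8369, Slamf6, Thy1, Klk8 and Dusp10. These stood at 2.13 to 19.2 CPM on the cytotoxic side over the 4 libraries, so they too passed the filter only through T cells.

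**Figure D4:**
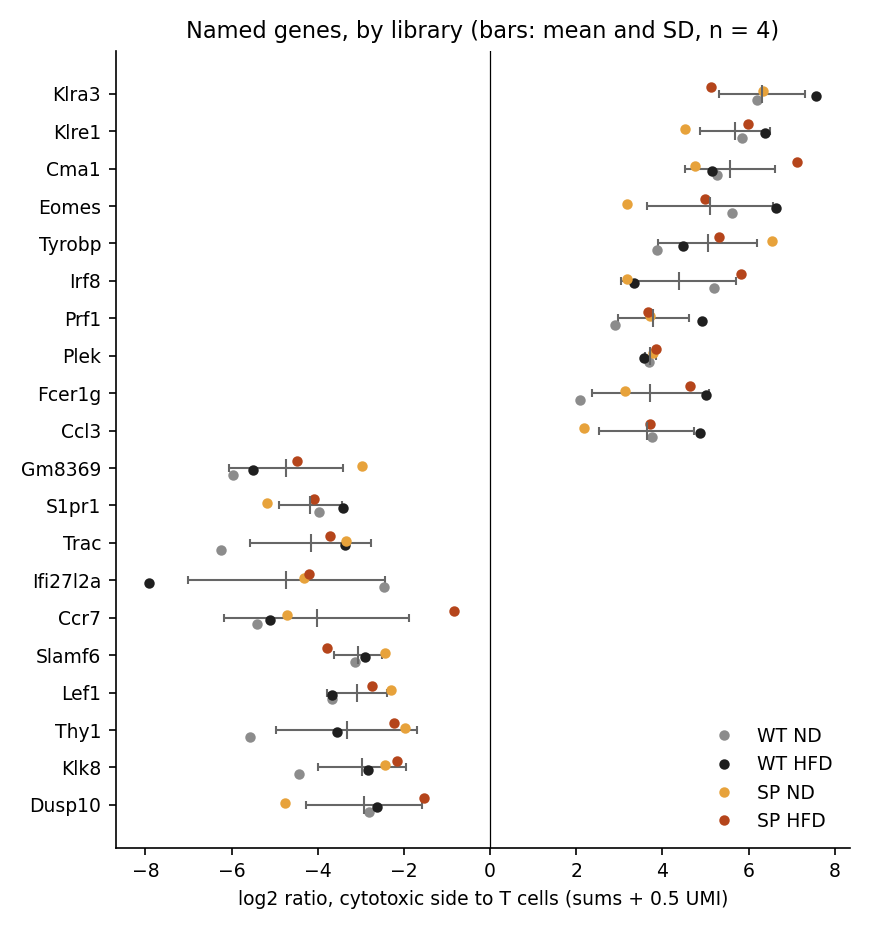
Log2 ratio of the cytotoxic side to T cells (x axis, from summed UMIs with 0.5 added) for the 10 leading genes in each direction; each point is 1 library and the bars show the mean and SD over 4 libraries. The genes were chosen for 1 direction in every library, which puts all points of a gene on 1 side of 0. Klra3 is highest at a mean of 6.31 and Plek the narrowest, at 3.72 ± 0.12.

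Lists of metabolism and activation are read beside the 1.94% and 3.54% of all genes called. None of 9 glycolysis genes, of 7 genes of fatty acid handling, of 4 methionine cycle genes and of 8 NF-kB genes passed, and 1 of 18 immediate early genes did (Nr4a2, higher), as did 1 of 11 heat shock genes (Hspb1, lower). Cell cycle genes H2afz and Stmn1 were higher among 6 tested, and Mki67 or Top2a was found in 7 of 117 cytotoxic-side barcodes. Transcripts of other kidney cells moved with the classes too. Of 13 proximal tubule genes 1 was higher (Slc22a6), with a median log2 ratio of 0.79 beside -0.03 over all genes tested. The 14 listed genes summed to 24666, 26740, 11758 and 5111 CPM on the cytotoxic side and 20307, 10609, 3354 and 4102 CPM in T cells, led by Kap in every library. Of 8 genes of the thick ascending limb and distal tubule, 5 were lower, among them Umod and Egf, with list sums of 739, 810, 903 and 1763 CPM on the cytotoxic side against 1499, 1668, 3379 and 2956. Klk8, among the lower genes above, was not in these lists. Their part in the calls was not tested, but with barcodes of at most 6000 UMIs, a limit chosen after seeing the data that kept 98 of the 117, 85 of the 130 genes were called again. Without the WT-ND library the lower calls numbered 39, and with DESeq2 34.

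The whole set of 271 members was led by the Gata3-led barcodes, which gave 1553783 of its 2230928 UMIs. Against T cells, 814 of 5884 genes were higher in members (13.8%) and 720 were lower (12.2%), and all 8 collecting duct genes tested were among the higher, with a median log2 ratio of 4.005 beside 0.01 over all genes. The 10 leading genes were Aqp6, Hsd11b2, Pappa, Ehf, Scnn1b, Kcne1, Slc4a1, Mcoln3, Kit and Tpd52l1, with Aqp6, a channel of intercalated cells, at a fitted log2 ratio of 6.34. Of 17 NK markers outside the rule, 5 were higher and 4 were lower. With the Gata3-led barcodes left out, 38 genes of 2652 were higher and 70 lower.

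Within the members, the cytotoxic side against the other 154 barcodes gave 488 higher genes of 4002 (12.2%) and 543 lower ones (13.6%). The sides were set by the rule's genes, so markers that go with these were bound to follow. Cytotoxic-side leaders were Gzmb, Cma1, Klre1, Klra3, Prf1, Ccl5, Klrc1, Eomes, Ms4a4b and Klrd1. Gzmb stood at 336 CPM against 1.14 over the 4 libraries and Ccl5 at 6493 against 79.5. All 8 collecting duct genes and 8 of 13 glycolysis genes were lower on the cytotoxic side, while 12 of 13 proximal tubule genes were higher.

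As a share of kept barcodes, members were 0.662% (95% Clopper-Pearson interval 0.519 to 0.834%) for WT-ND, 0.680% (0.527 to 0.865%) for WT-HFD, 0.933% (0.717 to 1.19%) for SP-ND and 0.938% (0.732 to 1.18%) for SP-HFD. The cytotoxic side alone was 0.368% (0.263 to 0.501%), 0.299% (0.200 to 0.429%), 0.311% (0.193 to 0.475%) and 0.362% (0.238 to 0.526%) by library. For members the intervals of the WT and SP libraries overlapped at their ends, and for the cytotoxic side the 4 intervals overlapped over most of their length. Relative to cytotoxic-side barcodes and T cells together, the cytotoxic side was 31.7% (23.7 to 40.6%), 24.2% (16.8 to 32.8%), 24.4% (15.8 to 34.9%) and 17.0% (11.5 to 23.7%). The T cell share of kept barcodes was highest in SP-HFD, at 1.77% against 0.791, 0.938 and 0.962% in the others, while the cytotoxic share there was not. The share of kept barcodes with Ptprc was 7.79% in WT-ND and 11.7% in SP-HFD, and dissociation and depth cannot be told apart from condition.

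Levels were then set side by side between libraries, in 4 pairs. The pairs WT-HFD to WT-ND and SP-HFD to SP-ND contrast the diets, and SP-ND to WT-ND and SP-HFD to WT-HFD contrast the genotypes. The diet pairs share no library with each other, whereas a diet pair and a genotype pair always share 1. Genes with at least 20 UMIs over a pair were ranked by the bound of their counting interval nearest to 0. On the cytotoxic side, 233 of 2209 genes were at least 2-fold higher in WT-HFD than in WT-ND (10.5%) and 166 were at least 2-fold lower (7.51%). In SP-HFD against SP-ND 60 of 818 were higher (7.33%) and 56 lower (6.85%). In SP-ND against WT-ND 189 of 1611 were higher (11.7%) and 231 lower (14.3%), and in SP-HFD against WT-HFD 87 of 1409 were higher (6.17%) and 225 lower (16.0%).

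The list of cytokines and chemokines had a median log2 ratio of HFD to ND on the cytotoxic side of 1.71 over 7 genes in WT and 0.98 over 6 in SP, beside 0.19 and 0.09 over all genes of the pair. At least 2-fold higher were 5 and 3 of them, and none was 2-fold lower. The same list gave 0.94 and 0.27 in T cells and 1.32 and 1.20 in all kept barcodes. Immediate early genes had medians of 0.23 and 0.25 on the cytotoxic side, with 2 higher and 2 lower past 2-fold among 18 in WT and 4 higher and none lower among 14 in SP, and 0.57 and 0.27 in barcodes of at most 6000 UMIs. In a count chosen after seeing the data, 14 of 806 genes (1.74%) were at least 2-fold higher in HFD in WT and in SP, and 4 (0.496%) at least 2-fold lower in both. The 14 were Ccl3, Ccl5, Cd69, Cwc15, Cxcr4, Cyba, Dnajb1, Ifng, Klre1, Rgs1, Rsrc2, Saraf, Serpinb6b and Sgk1, and Ndrg1, S100g and mt-Atp8 were among the 4. Ccl3, Ccl5, Cd69, Dnajb1, Ifng and Rgs1 remained under each of the 5 settings tried for this count. Measures of RNA quality moved with diet as well. The median mitochondrial share of cytotoxic-side barcodes was 8.63, 4.06, 7.09 and 5.45% by library, lower in HFD in both genotypes, and in T cells it was 7.60, 5.16, 7.25 and 5.64%. Heat shock genes, a list that includes Dnajb1, had medians of 0.61 in WT and 0.69 in SP. Lists of other kidney cells moved on the cytotoxic side too. In WT the median was 3.96 over 3 endothelial genes and -6.89 over 3 fibroblast and mural genes. It was 2.77 over 5 collecting duct genes, with 3 higher and 2 lower past 2-fold. In SP it was -1.37 over 11 proximal tubule genes and 1.56 over 3 of the thick ascending limb and distal tubule. The part of these measures and lists in the diet differences was not tested.

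Ccl5, a chemokine that draws T cells and monocytes, stood at 3445, 9857, 3436 and 10195 CPM on the cytotoxic side. Its place in the count over both genotypes required higher levels in HFD in WT and in SP, so the shared direction is no separate result. The log2 ratios of HFD to ND were 1.52 (95% counting interval 1.38 to 1.65) in WT and 1.57 (1.35 to 1.79) in SP. In T cells of the same libraries Ccl5 stood at 1169, 1060, 1123 and 1562 CPM, log2 ratios of -0.14 and 0.48. The most productive barcode gave 13.4 to 19.5% of the Ccl5 UMIs of its library, and in barcodes of at most 6000 UMIs the log2 ratios were 1.09 and 1.39.

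Ifng, taken from the same count and so higher in HFD in both genotypes by choice, stood at 296, 1048, 148 and 1267 CPM. The log2 ratios of HFD to ND were 1.83 (1.37 to 2.30) in WT and 3.097 (2.15 to 4.20) in SP, and in barcodes of at most 6000 UMIs 1.36 and 2.88. The share of cytotoxic-side barcodes with a UMI of Ifng was 40.0, 65.5, 19.0 and 51.9% by library, beside 0.504% of proximal tubule barcodes. These shares were not thinned to equal depth, and the median depths were 2122, 3122, 2626 and 2466 UMIs. In T cells Ifng stood at 362, 731, 586 and 341 CPM, higher with HFD in WT (log2 1.01) and lower in SP (-0.78). A single barcode gave 27 of the 54 Ifng UMIs of WT-ND.

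Rgs1, Cd69, Dnajb1 and Ccl3 were also in this group. Rgs1, which damps signals of chemokine receptors, stood at 230, 756, 874 and 2094 CPM, and Cd69, an early activation antigen that holds lymphocytes in tissue, at 93.1, 265, 163 and 620. Dnajb1, a heat shock cochaperone, stood at 236, 749, 237 and 1075 CPM on the cytotoxic side and at 449, 963, 655 and 661 in T cells. Ccl3, a macrophage inflammatory chemokine, stood at 192, 626, 296 and 634 CPM, but 1 barcode gave 19 of its 20 UMIs in SP-ND. Rgs1 and Dnajb1 were higher in WT-HFD than in WT-ND in T cells as well (log2 1.05 and 1.10), and in SP the T cell values were 0.41 and 0.01. Whether the diet differences of the cytotoxic side and of T cells differ was not tested.

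Cytotoxic effectors had a median log2 ratio of HFD to ND of 0.99 over 8 genes in WT and 0.56 over 6 in SP, and 0.51 and 0.47 in barcodes of at most 6000 UMIs. Activating receptors and adaptors had 0.70 and 0.27, with 4 of 11 and 0 of 8 at least 2-fold higher, and at most 6000 UMIs 0.18 and -0.07. Inhibitory receptors gave 0.77 over 3 genes and 0.40 over 2, then -0.20 and 0.08, and cytokine receptors 0.70 and -0.10. Receptor lists thus had no common direction over genotypes and settings. Prf1 gave log2 ratios of 1.54 (0.96 to 2.14) in WT and 0.74 (-0.12 to 1.63) in SP, and Gzmb 1.26 (0.55 to 2.00) and 0.84 (0.16 to 1.56). Klre1 gave 1.28 and 1.14, while Il2rb, a chain of the interleukin 2 and 15 receptor, gave -0.04 (-0.69 to 0.59) and -0.52 (-1.30 to 0.24). NK markers outside the rule had a median of 1.11 over 20 genes in WT and 0.74 over 17 in SP, beside 0.19 and 0.09 over all genes of the pair, and 11 and 4 of them were at least 2-fold higher with none 2-fold lower. In barcodes of at most 6000 UMIs these medians were 0.69 and 0.47, beside 0.15 and 0.06, with 4 of 19 genes at least 2-fold higher and 1 lower in WT and 3 of 17 higher in SP. The cytotoxic side was chosen on 4 NK genes, so these list values are a description. Proximal tubule genes had medians of -0.26 over 14 genes in WT and -1.37 over 11 in SP. Of these, 1 and 9 were at least 2-fold lower and none was higher. In barcodes of at most 6000 UMIs their medians were -0.72 over 12 genes and -0.47 over 3. The part of this change in the list values was not tested.

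**Figure D5:**
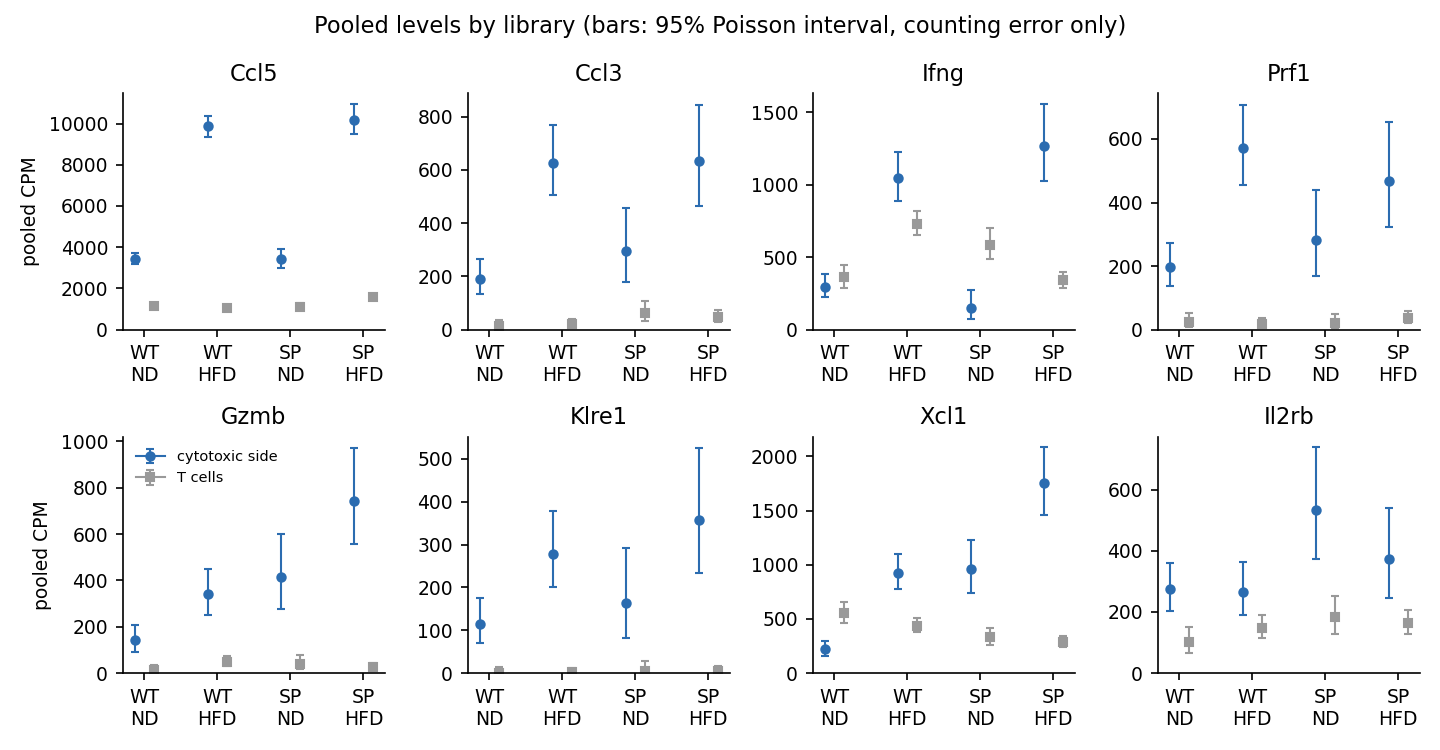
Pooled level (CPM, linear y axes from 0) of 8 genes in the 4 libraries (x axis) for the cytotoxic side (blue circles) and T cells (grey squares), with bars for the 95% Poisson interval, which covers counting error only. Ccl5 lies at 9857 and 10195 CPM in the HFD libraries and at 3445 and 3436 CPM in the ND libraries on the cytotoxic side, and between 1060 and 1562 CPM in T cells.

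Between genotypes on ND, Xcl1 and Ctla2a were among the leading genes of the cytotoxic side. Xcl1, the ligand of the receptor XCR1 on dendritic cells, stood at 219, 926, 963 and 1750 CPM, so WT-ND was below the other 3 libraries. Its log2 ratio of SP-ND to WT-ND was 2.14 (1.55 to 2.74), with 40.0% of the SP-ND UMIs from 1 barcode, and 1.69 in barcodes of at most 6000 UMIs. The direction was opposite in T cells, at -0.75 (-1.20 to -0.32), and in all kept barcodes, at -0.58 (-0.86 to -0.31). Ctla2a, a cysteine protease inhibitor, stood at 963 CPM in SP-ND and 197 in WT-ND, Rapgef6 at 222 and 27.4 and Slfn2 at 237 and 32.9. Rapgef6 rested on 15 against 5 UMIs and Slfn2 on 16 against 6. The log2 ratios of these 3 genes were 2.29, 3.02 and 2.85, and 1.67, 2.20 and 1.87 in barcodes of at most 6000 UMIs. In T cells they were 0.12, 0.47 and 0.11. Between genotypes on HFD, the tubule genes Egf (log2 2.17) and Slc12a1 (2.68) led the higher genes of SP-HFD. Rgs1 (log2 1.47, 1.11 to 1.84), Ier5 (1.82) and Cd7 (2.02) were also higher there, and Ccl5 was at 0.05 (-0.08 to 0.18). In barcodes of at most 6000 UMIs the ratios of Rgs1, Ier5 and Cd7 were 0.81, 1.21 and 1.28, and in T cells they were at -0.64, -0.46 and 0.12. Proximal tubule genes had a median of -2.34 in this pair, with 12 of 13 at least 2-fold lower. Thick ascending limb and distal tubule genes had 1.30, with 4 of 5 higher and 1 lower. Their part in these differences was not tested. The NK list's median was 1.03 over 18 genes in SP-ND against WT-ND and 0.36 over 21 in SP-HFD against WT-HFD. In barcodes of at most 6000 UMIs it was 0.09 over 16 genes and -0.31 over 19, so these medians did not hold under that limit. The limit changed both the barcodes and the genes counted, and their parts were not tested apart.

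Single barcodes with transcripts of other cells set many of the other leading genes. On the cytotoxic side Acta2, Tagln, Tpm2 and Myl9, genes of contractile cells, stood at 2536, 1610, 964 and 794 CPM in WT-ND, and 1 barcode gave 98% or more of each. The 9 fibroblast and mural genes summed to 4294 CPM in WT-ND and to 27.2, 14.8 and 41.3 CPM in the other libraries. In WT-HFD, 1 barcode gave 98.0% of the UMIs of Emcn and all of those of Plpp1, endothelial genes, and another set 64.9% of Aqp2. Fabp1, Miox and Cltrn of the proximal tubule were lower in SP-HFD than in SP-ND, with 81.7 to 89.7% of the SP-ND UMIs in 1 barcode. These 3 were lower also in barcodes of at most 6000 UMIs (log2 -3.78, -3.00 and -1.89) and in all kept barcodes (-7.00, -1.49 and -1.56). In T cells Fabp1 was at -5.19 and Cltrn at -1.89, and Miox at -0.58 with an interval of -1.32 to 0.19 that holds 0. Kap was lower in SP-HFD than in WT-HFD (2783 against 16202 CPM), with 63.6% of the WT-HFD UMIs from 1 barcode and 2760 against 5957 CPM in barcodes of at most 6000 UMIs. Barcodes of more than 6000 UMIs numbered 10 of 40, 6 of 29, 1 of 21 and 2 of 27. Their part in the differences between libraries was not tested beyond the values given for barcodes of at most 6000 UMIs.

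The pairs were also compared over all 271 members, where Acta2, Tagln and Tpm2 of the WT-ND barcode named above were again among the leading genes. In WT-HFD against WT-ND 332 of 6734 genes were at least 2-fold higher (4.93%) and 510 lower (7.57%), and in SP-HFD against SP-ND 396 of 6644 higher (5.96%) and 249 lower (3.75%). In SP-ND against WT-ND 184 of 6822 were higher (2.70%) and 331 lower (4.85%), and in SP-HFD against WT-HFD 327 of 6517 higher (5.02%) and 218 lower (3.35%). Cxcl2, a neutrophil chemokine, led WT-HFD against WT-ND with 62 UMIs against 0, but 1 barcode gave 55 of them. Class II genes H2-Ab1 and H2-Aa were among the 5 leading genes of both diet pairs, at 194 and 256 CPM in WT-HFD against 3.32 and 9.96 in WT-ND and at 229 and 315 CPM in SP-HFD against 9.08 and 16.4 in SP-ND, from 7 to 11 barcodes in each HFD library. In WT-HFD 1 barcode gave 86 of the 137 H2-Aa UMIs and 47 of the 104 of H2-Ab1. H2-Ab1 and H2-Aa were higher with HFD in all kept barcodes too, at log2 1.26 and 1.16 in WT and 0.97 and 0.89 in SP. Il1rl1 stood at 52.3 CPM in WT-HFD, with 28 UMIs in 8 barcodes, and none in WT-ND. The Il7r-led set, where class II genes and Il1rl1 were found in part, numbered 4 in WT-ND and 17 in WT-HFD. In SP-ND and SP-HFD it numbered 10 and 18, so the make-up of the members differed between diets. Igha, an antibody heavy chain, led SP-HFD against SP-ND and was found with 47 UMIs in 32 members of SP-HFD and none of SP-ND. Kidney genes such as Klk1, Umod and Slc12a1 were among the leading genes of the genotype pairs.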

How the data were processed

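The authors deposited filtered gene-by-barcode matrices of raw UMI counts, 1 per library, with 32285 gene rows and no normalization. The submitters' processing notes name Cell Ranger 2.1.1 and mm10, whereas the file headers and the study's methods name other versions of the software, so the version is uncertain. Total counts per library were 93142028 and 115117649 for WT on ND and HFD, and 111617794 and 90728590 for SP. No column lacked a sample (0).

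Members were found by the stated limits. The members and gene lists were chosen with earlier results of these data known. UMIs were summed per library and class and tested with edgeR 4.0.16 (TMM scaling, filterByExpr, quasi-likelihood F test, library as a block, Benjamini-Hochberg over all genes tested) in R 4.3.3, with DESeq2 1.42.0 as an alternative. The tests were checked on simulated counts with fixed seeds. Between libraries, CPM ratios carry conditional binomial 95% intervals, and genes needed 20 UMIs over a pair. Shares carry Clopper-Pearson intervals. All cover counting error only, and UMI sums of the cytotoxic side (182559, 146899, 67528 and 72588) limit the precision. Python 3.11.15, numpy 2.4.6 and scipy 1.17.1 were used.

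Doublets were left in. The highest scores of neighbours among simulated doublets, 0.8% per 1000 kept barcodes (5.40 to 8.69% per library), were removed as an alternative only. Other alternatives were other scaling, no filter on low counts, no library block, each library left out, 10% ambient RNA subtracted, other limits of the rule and barcodes of at most 6000 UMIs. Named genes were the rule's genes, the members of the lists, the 10 highest and 10 lowest log2 ratios of called genes that reached 100 CPM in the higher class with 1 direction in every library, and for each pair of libraries the 5 highest and 5 lowest by the interval bound nearest to 0. The genes of the count over both genotypes outside these rules were chosen after their values were seen. Gata3-led and Il7r-led sets, the test of the cytotoxic side against T cells, the limit of 6000 UMIs and the count over both genotypes were added after seeing the data. A few items are not reported here.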

Additional observations from a re-analysis of the deposited data

How the results depend on the processing

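Some list medians between libraries changed sign with the setting, among them the NK list in SP-HFD to WT-HFD, at 0.36 on the cytotoxic side and -0.31 in barcodes of at most 6000 UMIs. The member share of kept barcodes (by library, in the report's order) moved in 21 of 32 alternatives: with mitochondrial UMIs under 30% to 0.854, 0.879, 1.25 and 1.27%, with a sum of at least 6 to 0.386, 0.464, 0.533 and 0.710%, with Gata3 out of the sum to 0.396, 0.464, 0.444 and 0.576%, and without Gata3-led barcodes to 0.405, 0.474, 0.459 and 0.603%. With a sum of at least 3 it was 1.05% in WT-ND, and of barcodes with Ptprc members were 8.50, 7.88, 8.87 and 8.02%. The cytotoxic side's share of members moved in 4 of 24, to 41.2% in WT-ND with a sum of at least 3 and to 71.4, 60 and 50% in WT-ND, WT-HFD and SP-ND with a sum of at least 6.

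Calls of members against T cells moved to 1372 higher with no filter on low counts, to 46 higher and 84 lower with the cytotoxic side only, and to 38 and 70 without Gata3-led barcodes. Lower calls of the cytotoxic side against T cells were 34 with DESeq2, 52 with no library block, 38 with high doublet scores removed and 39 to 97 with a library left out, the lowest without WT-ND. With no filter on low counts, 70 were higher and 220 lower, and for the cytotoxic side against the other members 1085 were lower.

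Counts past 2-fold between libraries, in all members, moved in 27 of 56 alternatives. The number of genes tested changed with the setting, so a lower count is not a lower share. In the order of the pairs below, 6734, 6644, 6822 and 6517 genes were tested in all members. In cytotoxic-side barcodes of at most 6000 UMIs they were 824, 658, 694 and 814. In the order higher and lower, WT-HFD to WT-ND gave 113 and 164 with at least 50 UMIs, 548 and 871 with a mean over cells of counts per 10000, and 83 and 44 with cytotoxic-side barcodes of at most 6000 UMIs, and 166 were lower on the whole cytotoxic side. SP-HFD to SP-ND gave 103 and 74, then 656 lower by the mean over cells, 52 and 31 at 6000 UMIs, and 60 and 56 on the cytotoxic side. SP-ND to WT-ND gave 31 and 93, 592 and 590, and 55 and 61. SP-HFD to WT-HFD gave 60 and 62, 513 and 408, and 23 and 55, and 87 were higher on the cytotoxic side. The count over both genotypes was 7 higher and 2 lower with at least 50 UMIs, and moved in 2 of 8 alternatives. Of 190 list medians recomputed between libraries, 54 fell outside an interval around the main median that came from the spread between the genes of the list. The settings at 6000 UMIs, without Gata3-led barcodes and those of the test against T cells on the cytotoxic side were chosen after seeing the data.

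No paired analysis was possible because each condition has 1 library and replicate numbers were given in accession order. This concerns contrasts between conditions, whereas classes of barcodes were paired within libraries by the library block. The cytotoxic side holds 21 to 40 barcodes a library, which limits the precision, and a gene at 20 UMIs over a pair can come from 1 barcode.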

Other observations

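The 161 barcodes that met the sum but held CD3 numbered 24, 50, 33 and 54 by library, beside 72, 66, 63 and 70 members. Nkg7 was found in 111 of them, Il7r in 106, Gzma in 8 and Ncr1 in 12, whereas on the cytotoxic side Nkg7 was found in 112 of 117 barcodes, Gzma in 79 and Ncr1 in 93. The CD3 limit thus separated mostly barcodes with Nkg7 or Il7r and without Gzma.

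In kept barcodes of all kinds, Igha summed to 199417 UMIs in SP-HFD and 1908 in SP-ND, and in T cells to 69 and 2, beside the 47 and 0 of the members. The part of free RNA in the members' Igha was not tested.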
